A study of Mus musculus with 8 samples.

Results

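Mouse embryonic stem cells (ESCs) were compared here for 8 genes: the imprinted genes H19 and Igf2, the receptor genes Igf1r, Igf2r and Insr, and the RNA-binding protein genes Igf2bp1, Igf2bp2 and Igf2bp3. They are 8 of the 38991 genes in the expression tables, and all 8 were among the 12927 genes tested. Tested genes had at least 1 fragment per kilobase of transcript, scaled for library size (FPKM), in at least 2 cultures. They were chosen by the measured level of H19, which stood far higher in LIF+PD than in the other media, so the levels of H19 are given as a description, without a test. The RNA came from 8 cultures of RGd2 cells, a 129-strain ESC line that carries a destabilised GFP at the Rex1 (Zfp42) gene, and all 8 were grown in N2B27 medium on gelatin. CH, a GSK3 inhibitor, was used at 3 µM, PD, a MEK inhibitor, at 1 µM, and LIF is the cytokine that activates STAT3. Cells kept for 6 passages in 2i (CH and PD) then spent 5 passages in 2i+LIF, 2i alone, CH+LIF or LIF+PD, with 2 cultures each, and were sampled at passage 11. LIF+PD therefore lacks CH, CH+LIF lacks PD and 2i lacks LIF relative to 2i+LIF. The labels do not say whether the 2 cultures of a medium were kept apart from the start, so p-values measure the spread between these samples.

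H19 and Igf2 are reciprocally imprinted neighbours. H19 is a long non-coding RNA transcribed from the maternal chromosome, and Igf2, which encodes insulin-like growth factor 2, is transcribed mainly from the paternal one. CTCF bound to the unmethylated control region on the maternal chromosome keeps Igf2 from enhancers that both genes use. IGF2 signals through the receptor tyrosine kinases IGF1R and INSR, whereas IGF2R carries it to lysosomes for degradation, and the IGF2BP proteins bind mRNAs, Igf2 mRNA among them.

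The naive ESC markers Pou5f1, Sox2, Nanog, Zfp42, Esrrb, Klf4, Tfcp2l1 and Tdh were expressed in all cultures, with a summed FPKM of 3208 to 4491, to which Pou5f1 contributed most. In LIF+PD against 2i+LIF, 4 of the 8 fell (Tfcp2l1 by 1.16, Tdh by 1.12, Klf4 by 0.85 and Esrrb by 0.42 in log2(FPKM + 1)) and Zfp42 rose by 0.32 (limma, adjusted p = 0.000627 to 0.0381). These calls are 62.5% of the list, against 25.2% of all tested genes. In 2i Klf4 fell by 2.00, Tfcp2l1 by 1.03 and Esrrb by 0.49 (limma, adjusted p = 0.00014 to 0.0219), or 37.5% against 18.6%. In CH+LIF Nanog fell by 0.80 and Sox2 by 0.48 (limma, adjusted p = 0.0037 and 0.0230), or 25% against 25.4%. The r of log2(FPKM + 1) between the 2 cultures of a medium was at least 0.974. The number of reads is not part of the deposited values, and the relative depth estimated from low genes was lowest in 2i replicate 1, at 0.499 of that of 2i+LIF replicate 1, against 0.903 to 1.18 in the others. In bulk RNA, fewer cells that express a gene and less RNA per cell cannot be told apart.

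H19 (ENSMUSG00000000031, chr7:142575529-142578143 on the minus strand, GRCm38, annotated as a lincRNA) was abundant in LIF+PD and stood at a few FPKM or less elsewhere. It measured 94.1 and 111 FPKM in the 2 LIF+PD cultures. In 2i it measured 5.94 and 3.00 FPKM, in CH+LIF 2.37 and 2.21 FPKM, and in 2i+LIF 2.34 and 0.795 FPKM. LIF+PD thus stood apart from all 6 other cultures, and 2i lay above CH+LIF and 2i+LIF, whose values overlapped. The order of 2i is less certain. The bounds of its replicate 2, 1.89 to 4.12 FPKM, overlapped those of both CH+LIF cultures and of replicate 1 of 2i+LIF. The deposited bounds of the LIF+PD values began at 83.6 and 100.9 FPKM, whereas the highest upper bound in the other 6 cultures was 8.26 FPKM.

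The means were 103 ± 12.04 FPKM in LIF+PD, 4.47 ± 2.08 in 2i, 2.29 ± 0.111 in CH+LIF and 1.57 ± 1.09 in 2i+LIF (SD, n = 2). The LIF+PD mean was 65.5 times that in 2i+LIF, 44.8 times that in CH+LIF and 22.9 times that in 2i. On the log2(FPKM + 1) scale, which understates the change of low genes, these differences were 5.40, 4.97 and 4.29. The lower media are less certain, since the difference between CH+LIF and 2i+LIF was 0.43 and lay between -0.020 and 0.87 when 1 culture at a time was left out, the negative value arising without replicate 2 of 2i+LIF. By its level, H19 ranked 1053 and 1231 among all genes in the LIF+PD cultures and between 8232 and 12125 in the others. When the tested genes were ordered by how far LIF+PD lay above the next medium, H19 came at place 3, at 4.29, after Gm12617 at 5.11 and Gm25534 at 4.55, and Myl9 followed at 4.19.

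H19 is also the host of a microRNA. The mir-675 hairpin, at chr7:142577064-142577147 on the minus strand, lies within 3 of the 7 H19 transcripts of GENCODE M21. It is shown because its arms carry the seeds searched for in the receptor genes. In the hairpin the capitals mark both mature arms, and in the mature sequences they mark the seed, bases 2 to 8 (RefSeq, GRCm38.p6).
mir-675 hairpin: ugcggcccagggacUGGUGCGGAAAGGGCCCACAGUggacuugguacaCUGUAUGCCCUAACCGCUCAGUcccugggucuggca
miR-675-5p: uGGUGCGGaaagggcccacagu
miR-675-3p: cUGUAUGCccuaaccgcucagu
The separate row for Mir675, 84 bases long, was listed at 0 FPKM in all 8 cultures, also in the LIF+PD cultures where its host gene was high. A value listed at 0 in these tables can be a failed estimate, and mature microRNAs were not measured.

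Igf2 (ENSMUSG00000048583, chr7:142650766-142666816, minus strand) was highest in the same medium at a far lower level. It measured 4.28 and 4.29 FPKM in LIF+PD, 0.805 and 1.25 FPKM in 2i, 0.997 and 0.503 FPKM in CH+LIF, and 0.198 and 0.960 FPKM in 2i+LIF. LIF+PD did not overlap with any other medium, and the other media overlapped with each other. By the deposited bounds the gap was narrow. Those of the LIF+PD values began at 3.29 and 3.27 FPKM, and the highest upper bound elsewhere was 3.22 FPKM, in replicate 2 of 2i. Igf2 reached 1 FPKM in only 3 cultures, both of LIF+PD and replicate 2 of 2i, so it passed the filter through the medium in which it is high and would not have been tested without it. The fit without a filter does not have this limit, and its adjusted p is therefore given beside the other.

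The Igf2 mean of 4.29 ± 0.0124 FPKM in LIF+PD was 7.40 times the mean of 0.579 ± 0.539 FPKM in 2i+LIF (SD, n = 2). With limma on log2(FPKM + 1), fitted over all 8 cultures and adjusted over all 12927 genes by Benjamini-Hochberg, Igf2 differed by 1.79 ± 0.27 (SE) between LIF+PD and 2i+LIF (adjusted p = 0.0042, and 0.0133 without the filter). The difference was 1.61 from CH+LIF (adjusted p = 0.0050, and 0.0152 without the filter) and 1.39 from 2i (adjusted p = 0.0104, and 0.0263 without the filter). The call against 2i was lost, at adjusted p = 0.0520 to 0.0572, without replicate 1 of 2i, without either LIF+PD culture or with a pseudocount of 0.1. The size rests on the pseudocount, since the difference from 2i+LIF was 2.96 with 0.1 and 0.74 with 5 in place of 1. This difference was called under every setting tried (limma, adjusted p = 0.0013 to 0.0185 in those that kept both cultures of each medium). All these settings except the fit without a filter kept the filter that Igf2 passed through LIF+PD. Their agreement is therefore not separate support. Among the other media no difference in Igf2 was called, with an interval of -0.25 to 1.04 for 2i against 2i+LIF (95%).

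Within each culture, H19 exceeded Igf2 per kilobase in all but replicate 2 of 2i+LIF. The ratio of H19 to Igf2 FPKM was 22.0 and 25.9 in the LIF+PD cultures. It ranged from 0.827 to 11.8 in the other 6, where Igf2 was at most 1.25 FPKM.

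**Figure D1:**
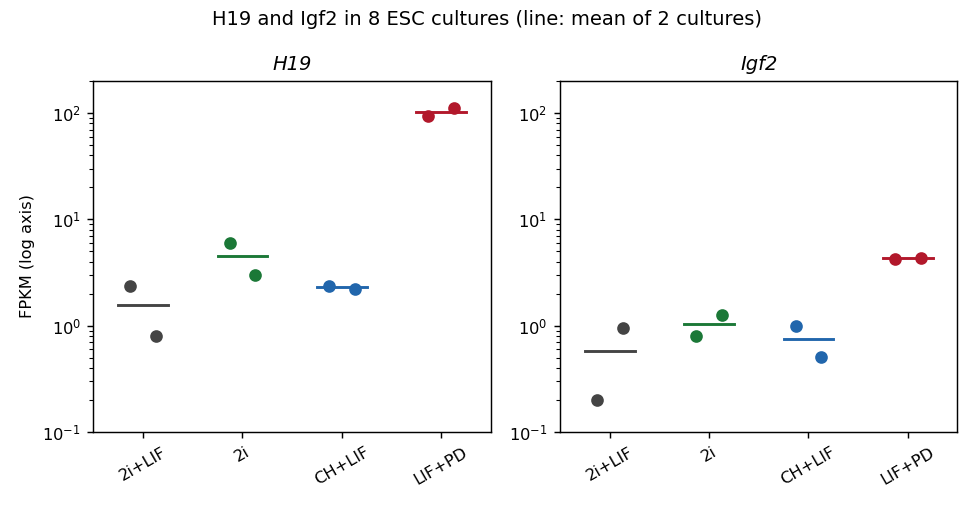
FPKM of H19 (left) and Igf2 (right) on a log axis in the 8 cultures; points are cultures and lines the mean of the 2 cultures of a medium. The LIF+PD cultures lie at 94.1 and 111 FPKM for H19 and at 4.28 and 4.29 FPKM for Igf2, above all 6 other cultures in both panels.

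Igf2 has 4 annotated transcription starts with a promoter sequence in RefSeq (250 bases before to 50 after each start), and the gene-level values do not say which of them was used. Across these 4 windows the number of CpG dinucleotides ranged from 2 to 24, against a median of 7 over 32851 mouse promoters. The start nearest to the 3′ end of the gene is shown because its window holds the motif match found for Igf2, the GC box letters GGGGCGGGG, in capitals.
Igf2 promoter 4, chr7:142657447-142657746, minus strand: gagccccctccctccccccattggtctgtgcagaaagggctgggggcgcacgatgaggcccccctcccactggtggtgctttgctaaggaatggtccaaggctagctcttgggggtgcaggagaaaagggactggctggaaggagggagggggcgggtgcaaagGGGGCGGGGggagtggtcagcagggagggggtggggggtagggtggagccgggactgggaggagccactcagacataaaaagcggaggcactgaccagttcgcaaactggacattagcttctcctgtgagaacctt
The same letters, searched on both strands, were found in the Igf2r promoter and in 11.4% of all promoters. Letters of the TCF/LEF motif (ATCAAAG, in 3.73% of promoters) and of the STAT motif (TTCNNNGAA, 8.30%) were not in the 8 promoter windows available for Igf2, Igf1r, Igf2r, Igf2bp2 and Igf2bp3. Nor were TATAAA (13.6%), the ETS letters CCGGAAG (8.86%) and the E2F letters TTCCCGCC (2.19%). H19, Insr and Igf2bp1 had no entry.

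Within 500 kb of H19 the tables list 43 genes, of which 23 were at 0 FPKM in all cultures and 9 were tested, H19 and Igf2 included. In LIF+PD against 2i+LIF, 2 of the 8 other than H19 were called, where 25.2% of all tested genes were called. They were Igf2 and Ascl2, a basic helix-loop-helix factor of the trophoblast that is also imprinted. Igf2 passed the filter through LIF+PD, where it is high, and without Igf2 only Ascl2 was called. Ascl2, 389 kb from H19, measured 3.06 and 3.81 FPKM in LIF+PD, 2.17 and 5.90 in 2i, 1.81 and 2.30 in CH+LIF and 0.638 and 1.22 in 2i+LIF. Against 2i+LIF it rose on the log2(FPKM + 1) scale by 1.21 ± 0.36 (SE) in LIF+PD and by 1.29 in 2i (limma, adjusted p = 0.046 and 0.045). Its LIF+PD values lay within the range of those in 2i, and the difference of LIF+PD from 2i was -0.08.

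The nearest tested neighbour of H19, Mrpl23, encodes a mitochondrial ribosomal protein and lies 34.8 kb away. It measured 72.4 and 77.9 FPKM in LIF+PD and 83.2 and 71.9 FPKM in 2i+LIF, with a difference of -0.04 ± 0.10 (SE) on the log2(FPKM + 1) scale. In LIF+PD against 2i+LIF, Ctsd, Tspan32, R74862, Cd81 and Tssc4 differed by -0.18 to 0.16, and none of the 5 was called (limma, adjusted p = 0.382 to 0.829). In LIF+PD against CH+LIF, Cd81 was higher by 0.89 and Ctsd by 0.52 (limma, adjusted p = 0.0060 and 0.0257), where 30.4% of all tested genes were called. Mrpl23, Tspan32, R74862 and Tssc4 were not called in that comparison. In CH+LIF against 2i+LIF, Cd81 fell by 0.95, Ctsd by 0.58 and Tspan32 by 0.91 (limma, adjusted p = 0.0064, 0.0209 and 0.0461). Mrpl23, Igf2, Ascl2, R74862 and Tssc4 were not called between CH+LIF and 2i+LIF, where 25.4% of all tested genes were.

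**Figure D2:**
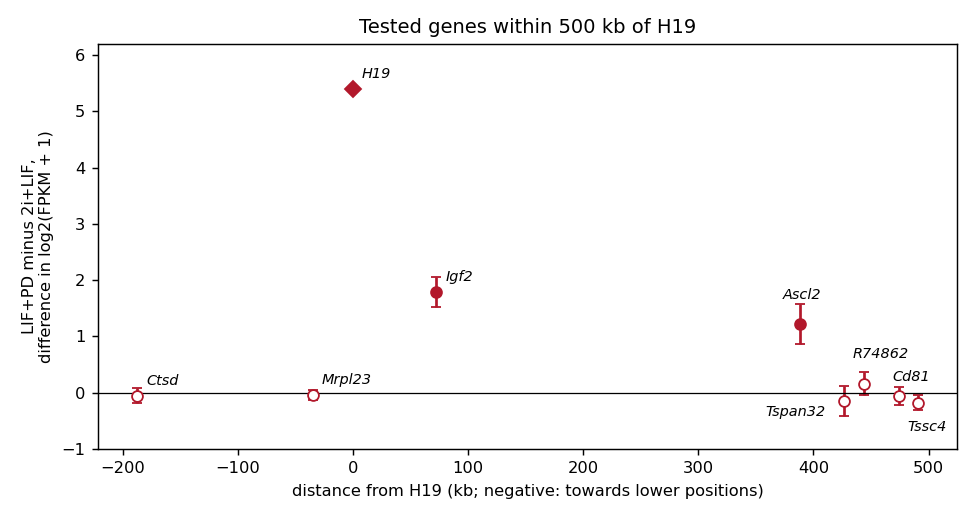
Difference between LIF+PD and 2i+LIF in log2(FPKM + 1) for the 9 tested genes within 500 kb of H19, against their distance from H19 in kb. Bars are the SE of the limma fit, filled circles mark an adjusted p below 0.05 and the diamond is H19, shown without a test. H19 at 5.40, Igf2 at 1.79 and Ascl2 at 1.21 stand above the others, which lie between -0.18 and 0.16. Igf2 passed the filter through LIF+PD, where it is high.

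The receptors differed between media by far less than H19. Igf1r (ENSMUSG00000005533, chr7:67952859-68226780, plus strand), the main signalling receptor for IGF1 and IGF2, measured 1.31 and 1.36 FPKM in 2i+LIF. It measured 3.12 and 3.64 FPKM in 2i, 4.20 and 3.31 FPKM in CH+LIF, and 2.59 and 2.16 FPKM in LIF+PD. All 6 cultures that lacked a component of 2i+LIF thus lay above both 2i+LIF cultures, and CH+LIF and 2i overlapped.

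Against 2i+LIF, Igf1r rose by 1.02 ± 0.16 (SE) on the log2(FPKM + 1) scale in CH+LIF (limma, adjusted p = 0.0053) and by 0.91 in 2i (adjusted p = 0.0094). In LIF+PD the difference was 0.53, with an interval of 0.15 to 0.91 (95%), and it missed the threshold (adjusted p = 0.0504). It was called there with the values rescaled to TPM, with a pseudocount of 0.1 and without the trend, at adjusted p = 0.0326 to 0.0378. The call in 2i was lost without either 2i+LIF culture (adjusted p = 0.0503 and 0.0546).

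Igf2r (ENSMUSG00000023830, chr17:12682406-12769664, minus strand), itself imprinted in the mouse, was the most abundant of the receptors per kilobase. It measured 12.7 and 14.3 FPKM in 2i+LIF, 11.3 and 11.9 FPKM in CH+LIF, 9.53 and 11.1 FPKM in 2i, and 9.22 and 9.54 FPKM in LIF+PD. Both 2i+LIF cultures lay above the 6 others, and 2i and LIF+PD overlapped. Igf2r fell by 0.48 ± 0.12 (SE) on the log2(FPKM + 1) scale in LIF+PD against 2i+LIF (limma, adjusted p = 0.0240). This call was lost on rescaling to TPM (adjusted p = 0.141) and without any 1 of the 4 cultures compared (adjusted p = 0.0561 to 0.127), with a difference of -0.56 to -0.36 in these fits. Airn, the antisense RNA at Igf2r, was listed at 0 FPKM in 7 of 8 cultures.

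Insr (ENSMUSG00000005534, chr8:3150922-3279617, minus strand), the insulin receptor, which also binds IGF2, measured 1.20 and 1.53 FPKM in 2i+LIF, 1.32 and 1.41 in 2i, 1.14 and 1.29 in LIF+PD, and 0.833 and 0.965 in CH+LIF. CH+LIF was lowest in both cultures, and the other media lay within 1.14 to 1.53 FPKM. No comparison was called for Insr. The interval for CH+LIF against 2i+LIF was -0.69 to 0.06 on the log2(FPKM + 1) scale (95%), and that for LIF+PD against 2i+LIF was -0.47 to 0.28.

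**Figure D3:**
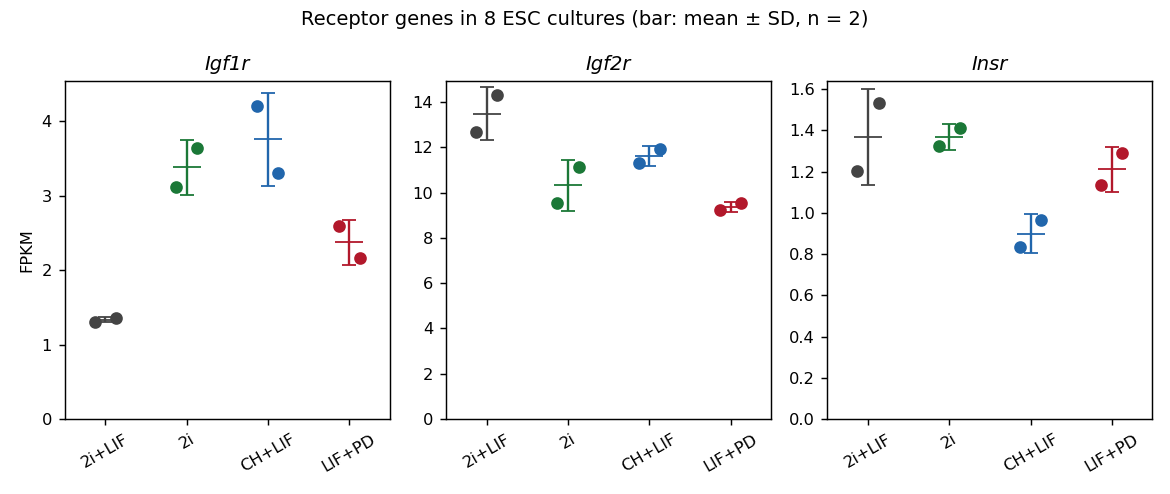
FPKM of Igf1r, Igf2r and Insr in the 8 cultures, each panel with its own axis from 0; points are cultures and bars the mean ± SD (n = 2). Igf1r is lowest in 2i+LIF (1.31 and 1.36 FPKM), Igf2r is highest there (12.7 and 14.3 FPKM), and Insr is lowest in CH+LIF (0.833 and 0.965 FPKM).

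Igf1r has been described as a target of miR-675. Its longest 3′ UTR in GENCODE M21 holds 2 matches to the miR-675-3p seed, and that of Insr holds 1. They are shown with the seed match in capitals and read 5′ to 3′ on the gene's strand.
Igf1r, chr7:68226891-68226913, plus strand: gctcctcatcaccccGCATACAc
Igf1r, chr7:68227650-68227672, plus strand: gaccgtgaaacatttGCATACAc
Insr, chr8:3152116-3152138, minus strand: gttcaatgatgtcaaGCATACAt
Such a match occurs in 7.66% of 21652 genes with an annotated 3′ UTR, and 0.720% hold at least 2. No member held a match to the miR-675-5p seed, which 1.78% of genes do. Both Igf1r matches lie beyond the end of the gene as deposited, by 111 and 870 bases, so that stretch was not part of its FPKM. Igf1r was 2.59 and 2.16 FPKM in LIF+PD, where H19 was high, and whether the microRNA acted on it was not tested.

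The Igf2bp family was expressed far above the receptors per kilobase, and its make-up differed between 2i+LIF and the other media. Igf2bp1 (ENSMUSG00000013415, chr11:95957163-96005940, minus strand) measured 77.4 and 90.1 FPKM in 2i+LIF, 113 and 156 FPKM in 2i, 166 and 147 FPKM in CH+LIF, and 161 and 143 FPKM in LIF+PD. The 2i+LIF cultures were the lowest, and the other media overlapped with each other. Igf2bp1 rose in all 3 media against 2i+LIF on the log2(FPKM + 1) scale, by 0.90 in CH+LIF (limma, adjusted p = 0.0088), 0.86 in LIF+PD (adjusted p = 0.0100) and 0.66 in 2i (adjusted p = 0.0313). The deposited FPKM of Igf2bp1 exceeded its own upper bound in replicate 2 of 2i, CH+LIF and LIF+PD.

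Igf2bp2 (ENSMUSG00000033581, chr16:22059009-22163299, minus strand) ran the other way. It measured 103 and 92.9 FPKM in 2i+LIF, 62.5 and 56.9 FPKM in 2i, 62.2 and 48.6 FPKM in CH+LIF, and 61.2 and 52.0 FPKM in LIF+PD. It fell by 0.82 in CH+LIF, 0.78 in LIF+PD and 0.71 in 2i on the log2(FPKM + 1) scale (limma, adjusted p = 0.0070, 0.0078 and 0.0147), and these 3 media overlapped.

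Igf2bp3 (ENSMUSG00000029814, chr6:49085221-49214954, minus strand) was also highest in 2i+LIF, at 58.2 and 59.0 FPKM. It measured 50.7 and 48.4 FPKM in LIF+PD, 43.9 and 40.6 FPKM in CH+LIF, and 40.6 and 37.7 FPKM in 2i, and LIF+PD lay between 2i+LIF and the other media without overlap. Against 2i+LIF it fell by 0.57 in 2i (limma, adjusted p = 0.0042) and by 0.46 in CH+LIF (adjusted p = 0.0079). In LIF+PD the difference was -0.24 (adjusted p = 0.0737). Between LIF+PD and 2i, Igf2bp3 was higher in LIF+PD by 0.33 (adjusted p = 0.0247).

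Several of these calls hung on single cultures. For Igf2bp1, the calls in LIF+PD and CH+LIF were lost without replicate 1 of 2i+LIF or replicate 1 of the medium itself (adjusted p = 0.0570 to 0.0641). Its call in 2i was lost without either 2i+LIF culture or without replicate 2 of 2i, where the difference was 0.43 instead of 0.66 (adjusted p = 0.0727 to 0.151). For Igf2bp2, the call in 2i was lost without the same 3 cultures (adjusted p = 0.0502 to 0.0863) and that in LIF+PD without replicate 1 of 2i+LIF (adjusted p = 0.0531). The call of Igf2bp3 between LIF+PD and 2i was lost without replicate 2 of 2i or either LIF+PD culture (adjusted p = 0.0719 to 0.117).

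Added over the family, the FPKM sum ranged from 216 to 273 in the 8 cultures, and the 2i+LIF cultures, at 239 and 242, lay inside that range. Igf2bp1 made up 32.4% and 37.2% of the sum in 2i+LIF, where Igf2bp2 made up 43.2% and 38.4%. In the other 6 cultures the Igf2bp1 share was 52.3% to 62.3% and the Igf2bp2 share 20.6% to 28.9%. The leading member was thus Igf2bp2 in both 2i+LIF cultures and Igf2bp1 in the 6 others.

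**Figure D4:**
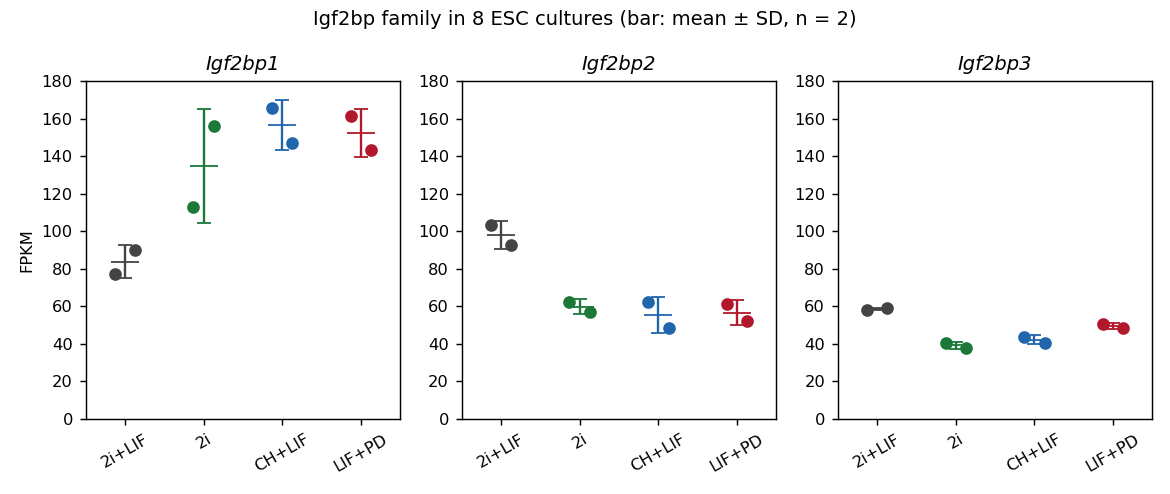
FPKM of Igf2bp1, Igf2bp2 and Igf2bp3 in the 8 cultures on a common axis from 0; points are cultures and bars the mean ± SD (n = 2). The 2i+LIF cultures are the lowest for Igf2bp1 (77.4 and 90.1 FPKM) and the highest for Igf2bp2 (103 and 92.9 FPKM) and Igf2bp3 (58.2 and 59.0 FPKM).

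The family is a textbook target of let-7, a microRNA of differentiated cells whose maturation LIN28 proteins block. The let-7a seed and its matches in the Igf2bp 3′ UTRs are shown because the number of matches differs within the family.
let-7a-5p: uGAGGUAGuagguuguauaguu
Igf2bp1, chr11:95961778-95961800: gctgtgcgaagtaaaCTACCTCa
Igf2bp1, chr11:95959357-95959379: cagcagtgctattaaCTACCTCa
Igf2bp1, chr11:95958763-95958785: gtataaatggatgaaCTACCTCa
Igf2bp1, chr11:95958140-95958162: acttttggttttaatCTACCTCt
Igf2bp2, chr16:22059473-22059495: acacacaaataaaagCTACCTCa
Igf2bp3, chr6:49086787-49086809: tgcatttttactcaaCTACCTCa
All 6 sites are on the minus strand, with the seed match in capitals. Igf2bp1 held 4 matches in a 3′ UTR of 6337 bases, and Igf2bp2 and Igf2bp3 held 1 each in 1784 and 2119 bases. Of all 21652 genes, 8.76% held at least 1 match and 0.0554% held 4 or more. Igf1r held 2, Igf2r and Insr 1 each and Igf2 none. Longer 3′ UTRs hold more matches by length alone, and let-7 itself was not measured.

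Lin28a and Lin28b were fitted alongside the family. Lin28a measured 31.2 and 29.4 FPKM in 2i+LIF and 81.5 to 159 FPKM in the 6 other cultures. It rose on the log2(FPKM + 1) scale by 2.35 in CH+LIF (limma, adjusted p = 0.000174), by 1.65 in 2i (adjusted p = 0.000263) and by 1.56 in LIF+PD (adjusted p = 0.000288). Lin28b, at 0.906 and 0.686 FPKM in 2i+LIF, rose by 1.70 in CH+LIF and 0.99 in 2i (adjusted p = 0.0011 and 0.0075), and differed by 0.50 in LIF+PD (adjusted p = 0.0648). Of the other let-7 target genes examined, Hmga2, a chromatin-binding HMG protein, went in both directions, with means of 33.0 FPKM in CH+LIF, 15.3 in 2i+LIF, 6.29 in LIF+PD and 4.42 in 2i. It rose by 1.08 in CH+LIF (adjusted p = 0.0498) and fell by 1.62 in 2i (adjusted p = 0.0156) and by 1.17 in LIF+PD (adjusted p = 0.0388). Over the list of Lin28a, Lin28b, Trim71, Hmga1 and Hmga2, 2 rose and 1 fell in LIF+PD against 2i+LIF, where 25.2% of all tested genes were called. In 2i 3 rose and 1 fell (18.6% of all genes), and in CH+LIF 4 rose (25.4% of all genes).

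Without H19, 4 of the 7 remaining members were called in LIF+PD against 2i+LIF, 2 higher (Igf2, Igf2bp1) and 2 lower (Igf2r, Igf2bp2), where 25.2% of all tested genes were called in either direction. In 2i against 2i+LIF 4 were called (18.6% of all genes), Igf1r and Igf2bp1 higher and Igf2bp2 and Igf2bp3 lower. In CH+LIF against 2i+LIF the same 4 genes were called in the same directions (25.4% of all genes). These comparisons share the 2i+LIF cultures, and the Igf2 call comes through a filter it passed where it is high. Leaving Igf2 out, 3 of 6 members were called in LIF+PD against 2i+LIF. The 4 calls in LIF+PD became 1 without replicate 1 of 2i+LIF and 2 without replicate 1 of LIF+PD. The 4 in 2i became 1 without either 2i+LIF culture and 2 without replicate 2 of 2i.

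Among the media that lack a component there were fewer calls. Igf2 and Igf2bp3 were called in LIF+PD against 2i (25.1% of all genes), both higher in LIF+PD. This count of 2 became 1 without either 2i culture and 0 without either LIF+PD culture. Igf2 was the only member called in LIF+PD against CH+LIF (30.4% of all genes). Leaving Igf2 out, these counts were 1 and 0 of 6. None of the 7 was called in CH+LIF against 2i (23.9% of all genes) by limma, none had an unadjusted p below 0.05 there, and none was called under any alternative setting. Insr had the lowest adjusted p in that comparison (limma, adjusted p = 0.188), with a difference of -0.32 and an interval of -0.69 to 0.05 (95%).

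**Figure D5:**
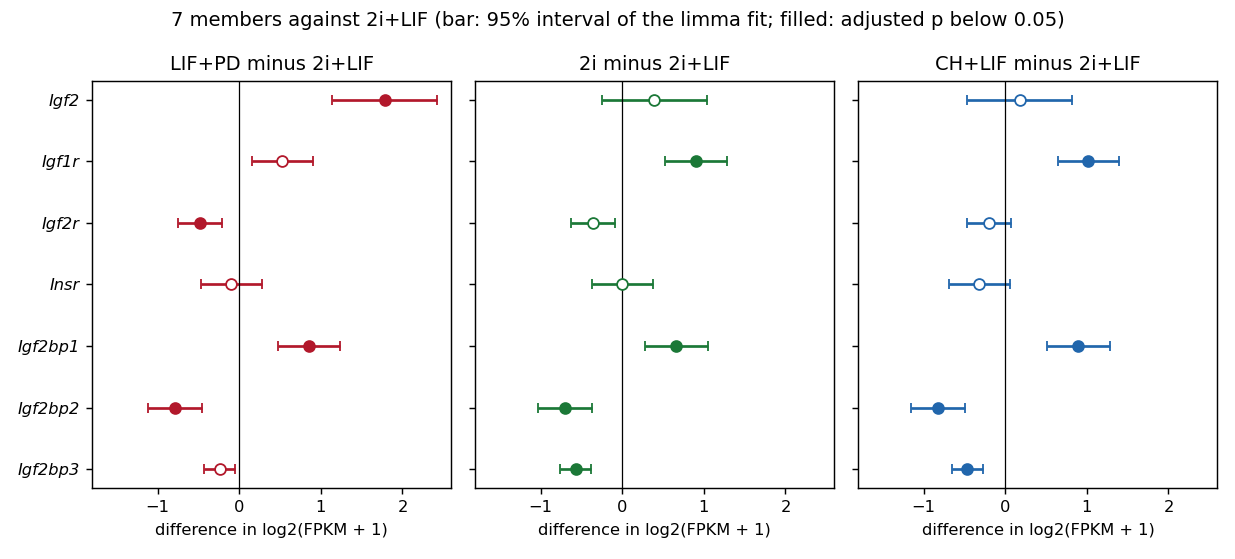
Difference from 2i+LIF in log2(FPKM + 1) of the 7 members other than H19 in LIF+PD, 2i and CH+LIF. Bars are the 95% interval of the limma fit and filled points have an adjusted p below 0.05. Igf2bp1 lies to the right and Igf2bp2 to the left of 0 in all 3 panels, and Igf2, which passed the filter through LIF+PD, lies farthest right there, at 1.79.

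Beyond the members, 47 genes of the IGF pathway (ligands, receptors, binding proteins, adaptors and the PI3K-AKT-mTOR arm) were followed, 37 of which were tested. Igfbp4, Igfbp5, Igfbp7 and Igfals passed the filter through 1 medium each, and the 33 others are counted here. In LIF+PD against 2i+LIF 9 rose and 2 fell, or 33.3%, against 25.2% of all tested genes, with a median difference of 0.15 against 0.03. In 2i 4 rose and 2 fell, or 18.2% against 18.6%, with a median of 0.18 against 0.04. In CH+LIF 5 rose and 5 fell, or 30.3% against 25.4%, with a median of 0.07 against 0.01. Between LIF+PD and 2i 3 were higher and 1 lower (12.1% against 25.1%), between CH+LIF and 2i 4 were higher and 8 lower (36.4% against 23.9%), and between LIF+PD and CH+LIF 8 were higher and 5 lower (39.4% against 30.4%).

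The other ligands were scarce. Igf1 was not tested, with 1.44 and 0.976 FPKM in LIF+PD, 0.598 and 0.830 in 2i, 0.0521 and 0.244 in CH+LIF, and 0 and 0.0118 in 2i+LIF. The insulin genes Ins1 and Ins2 were listed at 0 FPKM in all cultures.

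The binding proteins, which hold IGFs outside the cell, were dominated by Igfbp2. It measured 575 and 556 FPKM in LIF+PD, 507 and 410 in 2i, 355 and 244 in 2i+LIF, and 126 and 115 in CH+LIF. The media with PD thus lay above CH+LIF in every culture. Igfbp2 fell by 1.28 in CH+LIF against 2i+LIF (limma, adjusted p = 0.0038) and rose by 0.94 in LIF+PD (adjusted p = 0.0106), and LIF+PD exceeded CH+LIF by 2.22 on the log2(FPKM + 1) scale (adjusted p = 0.000274).

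Other binding proteins were lower. Igfbp5 measured 1.81 and 2.26 FPKM in LIF+PD and at most 0.502 FPKM elsewhere. Igfbp7, which also binds insulin, measured 2.54 and 3.25 FPKM in LIF+PD and at most 0.756 FPKM elsewhere. Igfbp4 measured 3.73 and 4.11 FPKM in CH+LIF and at most 0.999 FPKM in the other 6 cultures. These 3 genes reached 1 FPKM in 1 medium only, which is how they passed the filter, so their levels are given without a test. Igfbp3, the main carrier in serum, rose by 1.19 in 2i and by 0.81 in LIF+PD over 2i+LIF (limma, adjusted p = 0.0016 and 0.0055), from 3.42 and 3.74 FPKM in 2i+LIF to 9.26 and 9.63 in 2i.

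Among the adaptors downstream of the receptors, Grb10, an imprinted gene whose product restrains insulin and IGF1 receptor signalling, was highest in CH+LIF. It measured 23.5 and 22.9 FPKM there, 12.5 and 13.6 in LIF+PD, 6.60 and 10.2 in 2i, and 7.40 and 6.77 in 2i+LIF, and rose by 1.58 in CH+LIF and 0.79 in LIF+PD over 2i+LIF (limma, adjusted p = 0.0016 and 0.0177). Irs2, an insulin receptor substrate, measured 7.14 and 6.09 FPKM in LIF+PD and 1.82 and 2.69 in CH+LIF, a difference of 1.24 (adjusted p = 0.0060). Sos2, a RAS exchange factor, fell by 1.75 in CH+LIF and 0.99 in 2i against 2i+LIF (adjusted p = 0.0022 and 0.0201). Grb2, the adaptor with the highest mean in every medium but CH+LIF, where Gab1 lay at 88.3 FPKM and Grb2 at 86.3, had means of 81.5 to 116 FPKM and was not called against 2i+LIF.

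In the PI3K-AKT-mTOR arm, all 22 genes were tested, and 5 rose and 2 fell in LIF+PD against 2i+LIF (31.8%, against 25.2% of all tested genes). In 2i 3 rose and 1 fell (18.2% against 18.6%) and in CH+LIF 3 rose and 3 fell (27.3% against 25.4%), both close to the share over all genes. Phlpp1, a phosphatase that acts on AKT, fell by 1.03 in CH+LIF (limma, adjusted p = 0.0030), from 8.22 and 9.80 FPKM to 4.14 and 3.63 FPKM, and by 0.66 in LIF+PD (adjusted p = 0.0139). Eif4ebp1, a translation repressor and the most abundant gene of the arm, fell by 0.39 in CH+LIF (adjusted p = 0.0349), with 335 and 346 FPKM there and 408 to 502 FPKM in the other 6 cultures.

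Marker genes of other lineages moved as well. In LIF+PD the summed trophoblast markers reached 35.1 and 45.3 FPKM, against 25.4 to 33.7 in the other cultures. Within that list Gata3 had a mean of 16.4 FPKM in LIF+PD and at most 4.26 in the other media, Cdx2 had a mean of 0.0696 FPKM in LIF+PD against 9.07 in 2i+LIF, and Tpbpa, a marker of placental spongiotrophoblast, was listed at 0 in all cultures. The summed endoderm markers were 3.81 and 5.27 FPKM in LIF+PD and 1.87 to 2.94 elsewhere, with Afp at a mean of 0.0237 FPKM. Gata4 and Dab2 led that sum, at means of 1.88 and 1.50 FPKM in LIF+PD. Gata4 was called there against CH+LIF, but not against 2i+LIF or 2i (limma, adjusted p = 0.0455, 0.169 and 0.0676). Dab2 passed the filter only through LIF+PD. Sox7 had means of 0.671 FPKM in LIF+PD and 0.636 in CH+LIF. Gata6, Sox17, Pdgfra and Foxa2 had means of at most 0.151 FPKM in LIF+PD, and Foxa2 had 0.647 in 2i. The summed neural markers were 19.2 and 19.7 FPKM in LIF+PD and 3.26 to 12.4 elsewhere, led by Pax6 at 11.3 and 10.7 FPKM in LIF+PD and 7.81 and 9.20 in 2i. The mesoderm sum was 0.743 and 0.785 FPKM in LIF+PD and 4.56 to 37.1 elsewhere, where T led it. The fibroblast sum was 0.777 and 1.08 FPKM in 2i+LIF, 2.38 and 5.24 in 2i, 3.32 and 4.96 in LIF+PD, and 4.59 and 17.8 in CH+LIF, where Postn alone gave 14.1 in replicate 2, and Col3a1 and Dcn were listed at 0. Whether other cell types took part in the levels of H19 and Igf2 was not tested.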

How the data were processed

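RNA-seq of 8 RGd2 ESC cultures, 2 in each of 4 media, was analysed from the authors' tables. Single-end reads had been aligned by the authors (tophat2, mm10/GRCm38, Ensembl 75) and only uniquely mapped ones kept. The deposited FPKM values, 1 per gene in each culture, come with a lower and an upper bound. The submitters' processing notes name TopHat2, Cufflinks and Cuffdiff, and whether strand was used for the FPKM values is not given in the sources used here, so reads of antisense genes may not be separated. On the library type the sources differ: the methods name rRNA depletion, the sample records polyA RNA. The methods' count test (DESeq2) could not be run on FPKM values.

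Deposited starts count from 0 and 1 was added to them. With that, 26299 of the 37427 genes shared with GENCODE M21 had the same start and end, against 185 as deposited. The 22 entries that repeat an identifier were summed. Values were taken as log2(FPKM + 1), genes with at least 1 FPKM in at least 2 cultures were kept, and all 8 cultures were fitted together in limma 3.58.1 (R 4.3.3) with a mean-variance trend, 4 residual degrees of freedom and Benjamini-Hochberg adjustment over 12927 genes. A gene was called at an adjusted p below 0.05. When 1 culture is left out, its medium's lone culture is assumed to vary like the others.

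The members and gene lists were chosen with earlier results of these data known. From the lists other than the cell type markers, genes called with a difference of at least 1 in at least 1 of 6 comparisons and the most abundant gene of each list are named. From the marker lists of other cell types only some genes are named. Genes like a member are the 5 with the highest Pearson r over the 8 cultures, among tested genes whose media means span at least 1. Lists not shown in full in the text were the receptors, binding proteins, adaptors, PI3K-AKT-mTOR arm and DNA methylation factors. The markers of endoderm, trophoblast, mesoderm, neural cells and fibroblasts were not shown in full either, and Tubb3 was not analysed here. Alternatives were pseudocounts of 0.1 and 5, no filter, rescaling to TPM, median-of-ratios size factors, quantile normalization, fits of only the 2 media compared, limma without the trend, leaving out each culture, and the replicate number as a block. Counts without genes that passed the filter through 1 medium were added after seeing the data. Sequences come from RefSeq (GRCm38.p6) tables, with an entry for 5 of 8 members among the promoters, and from the GRCm38 genome with GENCODE M21 3′ UTRs, taking the longest per gene. The number of reads, and with it the counting error, is unknown. Python 3.11.15, numpy 2.4.6, pandas 2.3.3 and matplotlib 3.10.9 were used.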

Additional observations from a re-analysis of the deposited data

How the results depend on the processing

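The number of the 7 members called was within 1.5 times the reported one under each alternative, apart from these cases. Leaving out 1 culture gave 1 to 4 calls in LIF+PD against 2i+LIF and in 2i against 2i+LIF (4 reported) and 0 to 2 in LIF+PD against 2i (2 reported). That last comparison gave 1 with a pseudocount of 0.1 and 1 with only its 2 media fitted. LIF+PD against CH+LIF gave 2 calls (1 reported) with a pseudocount of 5, with quantile normalization and without the trend, Igf1r being added. Counting only members that pass the filter without any 1 medium, which leaves out Igf2 and was chosen after seeing the data, gave 1 call in LIF+PD against 2i and 0 in LIF+PD against CH+LIF. No single member's called difference reversed.

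For H19, pseudocounts of 0.1 and 5 gave differences of 6.11 and 4.04 for LIF+PD against 2i+LIF, 5.42 and 3.88 against CH+LIF, and 1.55 and 0.52 for 2i against 2i+LIF, and a pseudocount of 5 gave 3.52 for LIF+PD against 2i. Leaving out 1 culture gave 4.95 to 5.85 for LIF+PD against 2i+LIF, 0.66 to 1.56 for 2i against 2i+LIF and -0.020 to 0.87 for CH+LIF against 2i+LIF, the lowest value coming without replicate 2 of 2i+LIF.

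Over all members, comparisons and left-out cultures, 23 fits lost a call and 313 kept their side of the threshold. The 313 include differences that were not called to begin with and fits that left out a culture of a medium not compared. They therefore do not measure how stable the calls were. Some uncalled differences changed sign, such as Igf2 in CH+LIF against 2i+LIF, at 0.18 and at -0.18 without replicate 1 of 2i+LIF. The same call was lost in several fits. Igf2 in LIF+PD against 2i was also lost with a pseudocount of 0.1 (adjusted p = 0.0566, limma). Igf2bp1 in 2i against 2i+LIF was lost without the filter (adjusted p = 0.0697, limma) and with only its 2 media fitted (adjusted p = 0.0919), as was Igf2bp3 between LIF+PD and 2i with only those media (adjusted p = 0.0685). The cause was not tested.

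Replicate numbers do not pair the cultures here, since cultures of the same number deviated from their media with correlations of -0.03 to 0.09. With the replicate block the members called were 4, 4, 4, 2, 0 and 1 in the 6 comparisons. All 42 member differences kept their side of the threshold. The block cannot alter the differences themselves, since each medium holds both replicate numbers, and bears only on their spread. With 2 cultures a medium, differences within the spread of a low gene such as Insr were not detectable.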

Other observations

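Factors that maintain or change DNA methylation at imprinted loci were followed as a list of 13 genes, 12 of them tested. Against 2i+LIF, 3 rose and 1 fell in LIF+PD, or 33.3% against 25.2% of all tested genes. In 2i 2 rose and 3 fell (41.7% against 18.6%), and in CH+LIF 7 rose and 1 fell (66.7% against 25.4%). Dnmt3a, a de novo DNA methyltransferase, measured 6.50 and 6.33 FPKM in 2i+LIF, 63.5 and 51.2 in 2i, 43.4 and 31.9 in LIF+PD, and 21.0 and 17.0 in CH+LIF. It rose in each, by 2.97, 2.37 and 1.43 on the log2(FPKM + 1) scale (limma, adjusted p = 0.00014, 0.000288 and 0.0024). Its cofactor Dnmt3l went from 47.1 and 25.4 FPKM in 2i+LIF to 140 FPKM or more in every other culture, rising by 2.32 in LIF+PD (adjusted p = 0.000929). Dppa3, which protects methylated maternal DNA after fertilisation, fell in each, from 66.0 and 47.9 FPKM in 2i+LIF to 2.37 and 2.30 in CH+LIF (by 4.10, adjusted p = 0.000233), 24.1 and 15.3 in 2i (by 1.50, adjusted p = 0.0052) and 25.7 and 29.9 in LIF+PD (by 1.00, adjusted p = 0.0193).

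The demethylating dioxygenases went separate ways. Tet1 rose by 1.29 in CH+LIF and 1.06 in LIF+PD against 2i+LIF (limma, adjusted p = 0.0053 and 0.0098), whereas Tet2 fell by 1.11 in 2i alone among the media compared with 2i+LIF (adjusted p = 0.000511). Trim28, the corepressor that ZFP57 recruits and the most abundant gene of the list, had means of 1466 to 1949 FPKM and was not called against 2i+LIF. Methylation itself was not measured.

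The profiles most like that of H19 over the 8 cultures, by Pearson r of log2(FPKM + 1) among 2994 genes that varied between media, were those of Nsf (r = 0.996), Foxr1 (0.994), Sfrp5 (0.992), Rgs16 (0.989) and Gm12617 (0.989). Nsf, an ATPase of vesicle fusion, had means of 78.4 FPKM in LIF+PD and 29.8 to 35.3 in the other media. Sfrp5, a secreted Wnt inhibitor, had means of 7.35 FPKM in LIF+PD and at most 0.692 elsewhere. Igf2 came at place 179 in that order, with r = 0.912. The 8 cultures fall into 4 media, so these values largely describe LIF+PD standing above the other media and carry no p. By mean FPKM, Nsf and Sfrp5 did not share the order of H19 among the other media.

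For Igf2 the most similar profiles were those of Klk1 (r = 0.991), Nacc2 (0.986), Fez1 (0.985), Nkx2-9 (0.980) and Gm26905 (0.975), and for Igf2bp1 those of Emilin1 (0.969), Tlr5 (0.965), Itga9 (0.963), Sft2d2 (0.957) and Zfp106 (0.951). For Igf2bp2 they were Dsg2 (0.972), Dpp6 (0.971), Gm14256 (0.967), Serpinb1b (0.958) and Fam25c (0.954). For Igf2bp3 they were Tcl1 (0.989), Cyp4f39 (0.985), Fam107b (0.980), Fgf3 (0.979) and 1700061H18Rik (0.978). Tcl1, a coactivator of AKT, had a mean of 142 FPKM in 2i+LIF, 81.2 in LIF+PD, 53.9 in CH+LIF and 45.4 in 2i, the same order of media as Igf2bp3.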
